A study of Phormium tenax with 2 samples.

Results

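Transcription factors of the AP2/ERF and NAC families switch other genes on or off by binding DNA, and both families are widely studied in plants short of water. AP2/ERF proteins bind DNA through the AP2 domain. The DREB branch of the family is known in Arabidopsis for binding the dehydration-responsive element of drought-inducible promoters, and the ERF branch for binding the GCC box. NAC proteins carry a DNA-binding NAC domain at the N-terminus and a variable regulatory region at the C-terminus, and members in Arabidopsis and rice act in the response to drought and salt and in leaf ageing. The expression of 5 unigenes of these families, 3 of AP2 and 2 of NAC, was examined in the leaf blade of *Phormium tenax* (New Zealand flax), out of 75265 unigenes. A unigene is a cluster of transcripts assembled without a reference genome, which stands in for a gene and has no position on a chromosome. The AP2 unigenes were c53903.graph_c0, c53291.graph_c0 and c60139.graph_c1, and the NAC unigenes were c58485.graph_c0 and c58849.graph_c0.

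These unigenes were selected on the measured values of the same libraries, since the study named them among its transcription factors responsive to drought. Their fold changes are therefore given as a description, without a test. One ID is in doubt. The study lists c60139.graph_c1 with genes past its threshold, a log2 ratio of 2 in size, but in the deposited tables this unigene lies at -0.76, while c60139.graph_c0 of the same assembly component lies at 4.03. Which of them the name AP2 and the primers belong to could not be settled without the assembled sequences, so every value of c60139.graph_c1 below holds for the unigene with that ID and may not be that of the AP2 transcript. The deposited tables hold no gene names and no sequences, so neither the family names nor the leaf identity of the tissue could be checked against the data. No source used here places the AP2 unigenes in a branch of the AP2/ERF family. The NAC unigene c58485.graph_c0 has been annotated as a homologue of ANAC042 (JUNGBRUNNEN1), which in Arabidopsis delays ageing and raises heat tolerance.

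One library was sequenced per condition. For the drought library (T01) the soil was held at 25% of its water content at saturation, and for the control library (T02) at 70%. Plants in both were 1 year old. Watering of the drought plants was stopped until their level was reached, while the control soil was kept at its initial level. Both groups were harvested 10 days after the drought level had been reached. Each library was pooled in equal amounts from the RNA of 3 plants. The estimated reads summed to 17744093 under drought and 18540664 in the control. Spread between plants could not be measured from pooled libraries, so the intervals below cover counting error only and count PCR copies as separate molecules. In whole leaf blades, a lower number of cells of one type and less RNA per cell cannot be told apart.

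The primers with which the AP2 unigenes were amplified for quantitative PCR are shown because they are the stretches of sequence that identify these transcripts in the sources used here. They are written 5′ to 3′, with the last 5 bases, from which the copy is extended, in capitals. No primers were listed for the NAC unigenes. The study ran these PCR assays on biological replicates and reports fold changes close to those from sequencing. The PCR values themselves were not used here.
c53903.graph_c0 forward: cattcccaccctactCCTTC
c53903.graph_c0 reverse: ttcctcttgattggCACCG
c53291.graph_c0 forward: caaggccaagacgaaCTTTG
c53291.graph_c0 reverse: gaggtccgagaaacaGATCC
c60139.graph_c1 forward: acctaaagaacattttcagcACATG
c60139.graph_c1 reverse: gcatgtagaagacttttCCGGG

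The forward primer of c60139.graph_c1 was the longest and the poorest in G and C, with 25 bases of which 36% were G or C. The other primers had 19 to 22 bases and 50% to 55% G and C. Where these primers lie on the assembled transcripts was not examined here, and neither was whether the c60139.graph_c1 primers also match c60139.graph_c0, a unigene of the same assembly component that is described further on.

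Both NAC unigenes were abundant in the drought library. The level is given as TPM, the reads per base of transcript scaled to the same total in each library, which allows unigenes of different length to be compared. For c58485.graph_c0 the level was 166.09 TPM in the drought library (counting interval 161 to 171) and 30.22 TPM in the control library (28.2 to 32.3). It was the highest level of the 5 unigenes under drought, and 798th in rank among all unigenes of that library. The other NAC unigene, c58849.graph_c0, reached 82.10 TPM (78.8 to 85.5) in the drought library and 13.06 TPM (11.8 to 14.4) in the control library. Counting intervals of drought and control were apart for both.

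In reads, c58485.graph_c0 had 4648 under drought and 844 in the control. Its log2FC, which is the log2 of drought over control reads once scaled by edgeR's TMM method and with 1 read added to each count, was 2.24 (interval 2.13 to 2.35), or 4.71-fold. For c58849.graph_c0 there were 2397 drought reads and 376 control reads, and the log2FC was 2.45 (interval 2.29 to 2.61), or 5.45-fold. Both intervals lie above 2, the size of change that the study required when it chose its genes, so this is no independent evidence. They cover counting error only. With a coefficient of variation of 0.2 between libraries assumed on top, they would be 1.43 to 3.04 and 1.63 to 3.26, and both include 2. The log2 ratio of c58849.graph_c0 exceeded that of c58485.graph_c0 by 0.21 (interval 0.02 to 0.40). This difference does not depend on the scaling between libraries, and its lower bound is close to 0 with counting error alone. The levels of the NAC unigenes thus kept nearly the same proportion, with 2.02 times as much TPM of c58485.graph_c0 as of c58849.graph_c0 under drought and 2.31 times as much in the control.

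**Figure D1:**
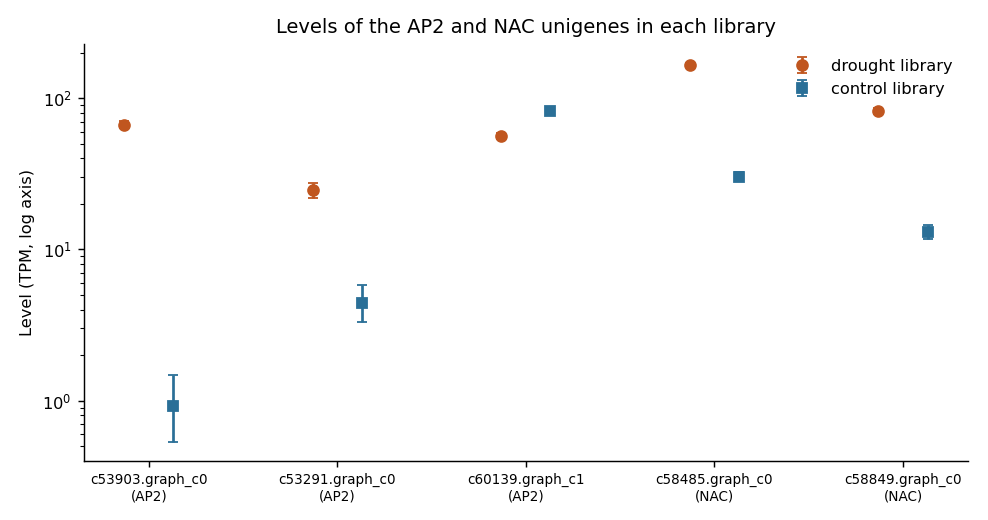
Level of each AP2 and NAC unigene in TPM (log axis) in the drought library (circles) and the control library (squares), with 95% counting intervals. In 4 of the 5 unigenes the drought value is above the control value, and for c60139.graph_c1 it is below, with 56.15 against 82.46 TPM.

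Of the unigenes listed as AP2, c53903.graph_c0 and c53291.graph_c0 were higher under drought, and c60139.graph_c1, the one whose ID is in doubt, was lower. The AP2 unigene c53903.graph_c0 had 1269 reads and 66.67 TPM (interval 63.1 to 70.4) in the drought library, and 17 reads and 0.92 TPM (0.54 to 1.47) in the control library. Its TPM was above that of 95.8% of the unigenes with a TPM above 0 in the drought library, and above that of 14.6% in the control library. Among all 75265 unigenes, those at 0 TPM included, the shares were 96.6% and 42.7%, so its control place depends on the set ranked. No other of the 5 unigenes moved as far through either order. The log2FC was 5.92 (interval 5.31 to 6.78), or 60.7-fold. This was the widest interval of the 5, with few control reads behind it.

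The AP2 unigene c53291.graph_c0 was the least abundant of the 5 under drought. It had 298 reads and 24.51 TPM (21.8 to 27.5) in the drought library, and 53 reads and 4.44 TPM (3.33 to 5.81) in the control library. Drought was higher by a log2FC of 2.25, with an interval of 1.84 to 2.72 that includes 2. Its log2 ratio differed from that of the NAC unigene c58485.graph_c0 by 0.03 (interval -0.41 to 0.49), so no difference between these was detectable at this depth. That of c53903.graph_c0 was higher than that of c53291.graph_c0 by 3.73 (interval 2.89 to 4.63), so these AP2 unigenes differed beyond counting error.

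The unigene c60139.graph_c1, as listed, was lower under drought. It had 2084 reads and 56.15 TPM (53.8 to 58.6) in the drought library, against 3029 reads and 82.46 TPM (79.5 to 85.5) in the control library. The log2FC came to -0.76 (interval -0.84 to -0.68). Many reads make this interval narrow, but the value is small. If a coefficient of variation of 0.2 between libraries were assumed on top of counting error, the interval would be -1.57 to 0.04 and include 0. Under an assumed coefficient of 0.4 the other 4 unigenes still had intervals above 0, with lower bounds of 4.26 for c53903.graph_c0, 0.61 for c53291.graph_c0, 0.63 for c58485.graph_c0 and 0.84 for c58849.graph_c0. The c53291.graph_c0 log2 ratio exceeded that of c60139.graph_c1 by 3.03 (interval 2.60 to 3.49).

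The leading unigene of the 5 differed between the libraries. Together they had 395.52 TPM in the drought library and 131.10 TPM in the control library. In the drought library c58485.graph_c0 took 42.0% of this sum, c58849.graph_c0 20.8%, c53903.graph_c0 16.9%, c60139.graph_c1 14.2% and c53291.graph_c0 6.20%. In the control library c60139.graph_c1 alone took 62.9%, followed by c58485.graph_c0 with 23.1%, c58849.graph_c0 with 9.96%, c53291.graph_c0 with 3.39% and c53903.graph_c0 with 0.702%. The counting intervals of neighbours in either order did not overlap. Summed by family over these 5 alone, the NAC unigenes had 248.19 TPM under drought and 43.28 TPM in the control, a ratio of 5.73. The study counts further NAC and AP2/ERF unigenes as responsive to drought, so sums over these 5 are not totals of either family. For the AP2 unigenes the sums were 147.33 and 87.82 TPM in drought and control, a ratio of 1.68, with most of the control sum in c60139.graph_c1. Without c60139.graph_c1 the AP2 sums were 91.18 TPM under drought and 5.36 TPM in the control, a ratio of 17.0. These ratios are of TPM without the TMM scaling, so they cannot be set directly beside the fold changes given above.

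Large fold changes were common among unigenes with few reads, which has to be set beside these values. Of the 5 unigenes, 4 had a log2FC of 2 or more and none had one of -2 or less. Of all 71410 unigenes with reads in either library, 27.6% (19681) had a log2FC of 2 or more, 17.5% (12477) had one of -2 or less, and 42.7% were below 0. With total reads as the scaling, the numbers past 2 and -2 were 24067 and 9345. All 5 unigenes had at least 100 reads in both libraries together, and of the 16503 unigenes with that many, 7.22% (1192) had a log2FC of 2 or more, 4.85% (801) had one of -2 or less, and 53.3% were below 0. The members were chosen from this contrast, so nothing is read from their share. Among these 16503 unigenes, 1.09% had a higher log2FC than c53903.graph_c0, 5.39% a higher one than c58849.graph_c0, 6.12% than c53291.graph_c0 and 6.19% than c58485.graph_c0. For c60139.graph_c1, 20.9% had a lower one. The members nearest to the threshold of 2 were c58485.graph_c0 with 2.24 and c53291.graph_c0 with 2.25 on the inside, and c60139.graph_c1 with -0.76 was the only one on the outside.

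**Figure D2:**
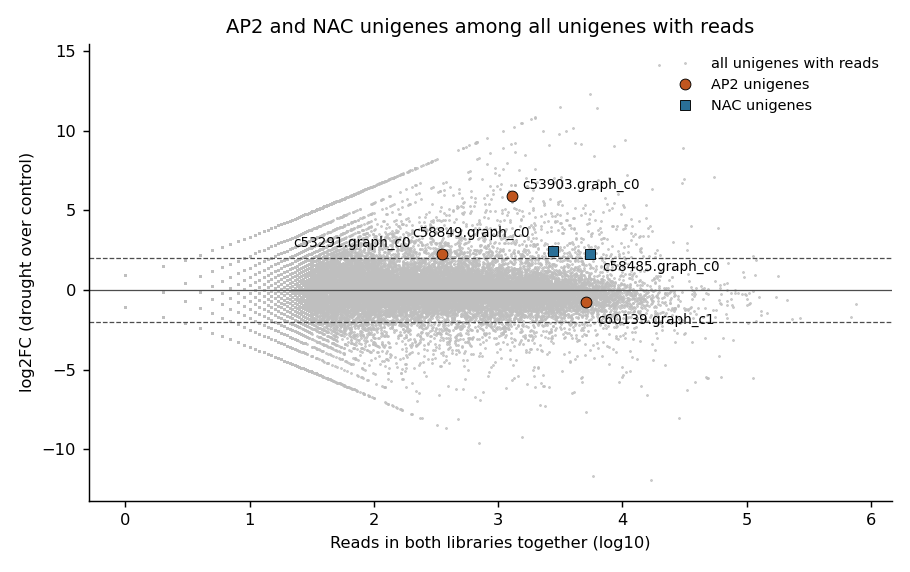
The log2FC (drought over control) of every unigene with reads, plotted against the log10 of its reads in both libraries together, with the AP2 unigenes as circles and the NAC unigenes as squares. Dashed lines mark 2 and -2. The 3 members near the upper line lie between 2.24 and 2.45, c53903.graph_c0 lies at 5.92 among the upper 1.09% of the unigenes with at least 100 reads, and c60139.graph_c1 lies at -0.76 inside the main cloud.

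Trinity places transcripts that share sequence in one component, and a component may be divided into several unigenes. No other unigene was listed in the components of c53903, c53291, c58485 and c58849. The component of c60139.graph_c1 held 32 transcripts, 12 in c60139.graph_c1 and 20 in c60139.graph_c0, a unigene to which no source used here gives a family name. The name c60139.graph_c0 was taken up after its values had been seen. It had 7820 reads and 442.25 TPM (433 to 452) in the drought library, and 410 reads and 24.39 TPM (22.1 to 26.9) in the control library. This unigene had a log2FC of 4.03 (interval 3.89 to 4.18), and its log2 ratio was higher than that of c60139.graph_c1 by 4.79 (interval 4.63 to 4.96), a value that no scaling between libraries can alter.

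The make-up of the component differed between the libraries. Of its reads, c60139.graph_c1 took 21.0% of 9904 in the drought library (exact binomial interval 20.2% to 21.9%), and 88.1% of 3439 in the control library (86.9% to 89.1%). In TPM, c60139.graph_c0 was at 7.88 times the level of c60139.graph_c1 under drought and at 0.296 times in the control. The whole component was higher under drought, with a log2FC of 1.30 (interval 1.25 to 1.36). Among the 1423 components with 2 or more unigenes of at least 100 reads, 71 (4.99%) held a unigene with a log2FC of 2 or more beside one below 0. The counting could have divided reads between the transcripts of these unigenes. How far it did so was not tested.

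**Figure D3:**
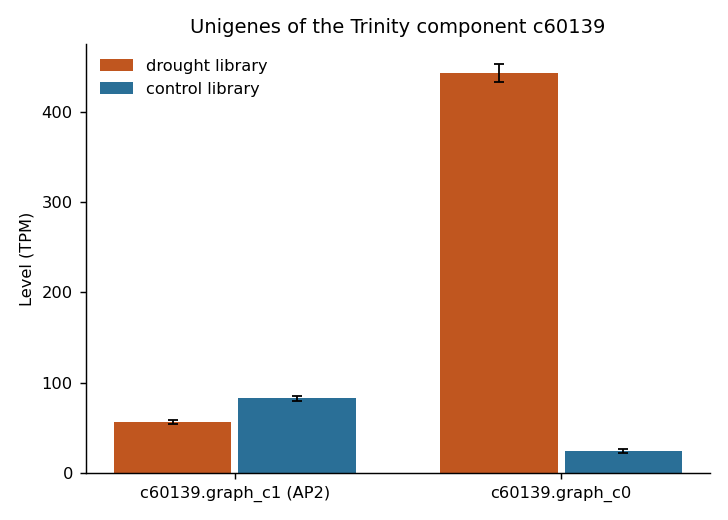
Level in TPM of the unigenes of component c60139, for the drought library (left bar of each pair) and the control library (right bar), with 95% counting intervals. The AP2 unigene c60139.graph_c1 is lower under drought (56.15 against 82.46 TPM), and c60139.graph_c0 is higher (442.25 against 24.39 TPM).

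Length and transcript number were not themselves used to choose the unigenes. The choice needed a family annotation, however, and in the study long unigenes were annotated more often than short ones. A greater length is therefore not independent of the choice. All 5 were longer than most unigenes with reads, whose median length was 309 bp. That is not particular to them. The 13 other transcription factor unigenes described below were also longer than this median. They ranged from 472 bp for MYC c67021.graph_c0 to 1676.98 bp for MYB c56737.graph_c0 in the drought library. The lengths in the drought table were 2332.22 bp for c60139.graph_c1, 1850.42 bp for c58849.graph_c0, 1776.80 bp for c58485.graph_c0, 1233.18 bp for c53903.graph_c0 and 814 bp for c53291.graph_c0. The shortest of them, c53291.graph_c0, was longer than 83.2% of unigenes with reads, and the longest, c60139.graph_c1, longer than 98.5%. The unigene c53291.graph_c0 had 1 transcript, c53903.graph_c0 had 3, and each NAC unigene had 4.

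For a unigene with several transcripts the listed length may differ between the tables, and was read as a mean over transcripts weighted by their abundance, although no source states this. On this reading a difference in length shows a different mix of transcripts. The lengths of the members hardly differed. The c58485.graph_c0 length was 1776.80 bp in the drought table and 1802.25 bp in the control table, a difference of -25.45 bp, and that of c53903.graph_c0 was 1233.18 and 1218.56 bp in drought and control, a difference of 14.62 bp. For c60139.graph_c1 the difference was -13.95 bp and for c58849.graph_c0 -3.72 bp. As a share of the control length these were 1.41%, 1.20%, 0.595% and 0.201% in size, against a median of 3.80% over the 15446 unigenes of several transcripts that had 10 or more reads per library. For c60139.graph_c0 it was 3.19%. The set behind the median of 3.80% reaches down to 10 reads per library, and depth was not matched. Whether depth makes the differences of the members smaller was not tested.

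Other transcription factors named by the study were set beside the AP2 and NAC unigenes. They were 6 WRKY, 5 MYB and 2 MYC unigenes, and since the study chose them from these libraries too, their direction is not independent evidence. All 13 had a log2FC of 2 or more with TMM scaling, and 12 with upper-quartile factors, where WRKY c52656.graph_c0 was at 1.92. With at least 10 reads required in each library 10 were counted, and at a threshold of 3 there were 11. The share at 2 or more was 27.6% of all unigenes with reads, and 7.22% of those with at least 100 reads. The median of the 13 with TMM was 3.77, while the median of the 5 AP2 and NAC unigenes was 2.25 and that of the unigenes with at least 100 reads was -0.07. MYB c37958.graph_c0, MYB c38669.graph_c0 and MYC c67021.graph_c0 had fewer than 100 reads and are outside this last set. The WRKY unigenes, a family known for its part in defence and stress responses, had values between 2.13 and 4.93, and the NAC values of 2.24 and 2.45 lay near the lower end of this range. WRKY c55976.graph_c0 reached 666.49 TPM in the drought library and 36.92 TPM in the control library, the highest drought level of the 18 transcription factor unigenes, and MYB c56737.graph_c0 was next with 562.69 and 46.49 TPM. The highest control level of the 18 was that of AP2 c60139.graph_c1.

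In 2 of the 13, MYB c38669.graph_c0 and MYC c67021.graph_c0, there were 43 and 40 drought reads and no control reads. With the control set to a floor of 3 reads, they were 12.3-fold and 11.4-fold higher under drought. These folds leave out the counting error of the drought reads. The lower bounds of their log2FC intervals were 3.26 and 3.15, and the intervals have no upper bound. Of the other 11, none had a log2FC interval that lay above the interval of AP2 c53903.graph_c0. The highest value of them was that of WRKY c54290.graph_c0 with 4.93 (interval 4.73 to 5.15). MYB c37958.graph_c0, with 4 control reads, had a log2FC of 3.76 with a wide interval of 2.63 to 5.95. This interval overlaps with that of AP2 c53903.graph_c0.

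Hormone signalling unigenes of the study were the other list, as AP2/ERF and NAC genes are known in Arabidopsis as targets of abscisic acid and jasmonate signalling. Of these 7 unigenes, which include the MYC unigene c55362.graph_c0 (MYC2, a regulator of jasmonate responses) counted above, 6 had a log2FC of 2 or more and 1 had one of -2 or less, with a median of 2.51. With upper-quartile factors 5 were at 2 or more, as PP2C c39046.graph_c0 was at 1.99, and with the deposited FPKM values none was at -2 or less, as JAR1 c44105.graph_c0 was at -1.93. They too were chosen from these libraries, and the shares over all unigenes are those given above. The PP2C unigenes encode protein phosphatases that hold back abscisic acid signalling, and PP2C c39046.graph_c0 and c59144.graph_c0 had log2FC values of 2.20 (interval 2.03 to 2.38) and 2.42 (interval 2.01 to 2.89). Both values lie close to those of the NAC unigenes and their intervals overlap with both NAC intervals. JAZ unigenes encode repressors of jasmonate signalling, and of the 3 the highest, c65972.graph_c1, had a log2FC of 6.23 (interval 5.55 to 7.24). This interval overlaps with that of AP2 c53903.graph_c0. The control levels of these unigenes rest on few reads. AP2 c53903.graph_c0 had 0.92 TPM (17 reads), and the JAZ unigenes had between 0.92 and 2.46 TPM (13 to 16 reads). JAZ c51091.graph_c0 with 1.63 TPM and c48623.graph_c0 with 2.46 TPM lay above the counting interval of c53903.graph_c0, 0.54 to 1.47 TPM. The only unigene lower under drought was JAR1 c44105.graph_c0, for an enzyme that joins jasmonate to isoleucine, with a log2FC of -2.31 (interval -3.13 to -1.68).

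**Figure D4:**
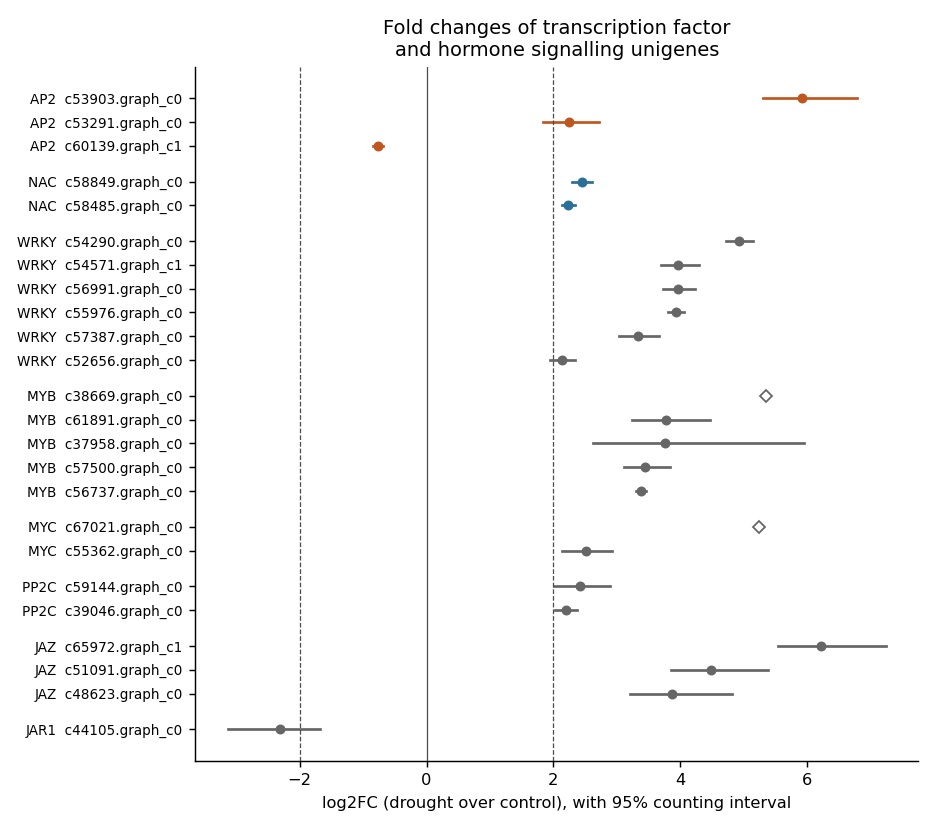
The log2FC (drought over control) of the AP2 and NAC unigenes above the other transcription factor and hormone signalling unigenes, with 95% counting intervals as lines and dashed lines at 2 and -2. Open diamonds mark the 2 unigenes with no control reads, whose value depends on the added read. Apart from AP2 c60139.graph_c1 at -0.76 and JAR1 c44105.graph_c0 at -2.31, all values are above 2.

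Likeness of pattern was measured as the distance between unigenes in log2(TPM + 0.1) over the 2 libraries, so it reflects level and fold change together, and with 2 libraries many unigenes can be close. Of the 13 other transcription factor unigenes, WRKY c52656.graph_c0 was the nearest to NAC c58849.graph_c0 at a distance of 0.44, with 69.52 TPM in the drought library and 16.92 TPM in the control library. It was also the nearest to NAC c58485.graph_c0 (1.51) and to AP2 c60139.graph_c1 (2.30), in both cases at a larger distance. The nearest to AP2 c53291.graph_c0 was MYC c55362.graph_c0 at 0.66, with 19.53 TPM under drought and 2.96 TPM in the control, and the nearest to AP2 c53903.graph_c0 was MYB c61891.graph_c0 at 1.46.

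Among all unigenes, the number within a distance of 0.25 was 2 for c53903.graph_c0, 10 for c58485.graph_c0, 12 for c58849.graph_c0, 27 for c53291.graph_c0 and 140 for c60139.graph_c1. By this count c53903.graph_c0 had the fewest unigenes near it and c60139.graph_c1 the most. The counting interval of the c53903.graph_c0 control level, 0.54 to 1.47 TPM, is wider on the log2 scale than this distance. The counts therefore cannot rank how widely the levels are shared. The closest to c53903.graph_c0 was c51063.graph_c0, with 66.80 TPM (596 reads) in the drought library and 0.91 TPM (8 reads) in the control library. The closest to c60139.graph_c1 was c57076.graph_c0, with 54.43 TPM (817 reads) and 82.28 TPM (1214 reads) in drought and control. The deposited tables pair neither of them with a gene name.

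Scaling between the libraries moved all values together. Relative to TMM, upper-quartile factors shifted the log2 ratio by -0.214, DESeq2 factors by -0.031 and total reads by 0.287. Under each of these, other added read numbers and the deposited FPKM and TPM values, the log2FC ranged from 5.66 to 6.20 for c53903.graph_c0, from 2.04 to 2.53 for c53291.graph_c0, from 2.02 to 2.54 for c58485.graph_c0, from 2.23 to 2.73 for c58849.graph_c0 and from -0.98 to -0.47 for c60139.graph_c1. None of the 5 changed its direction or crossed 2.

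**Figure D5:**
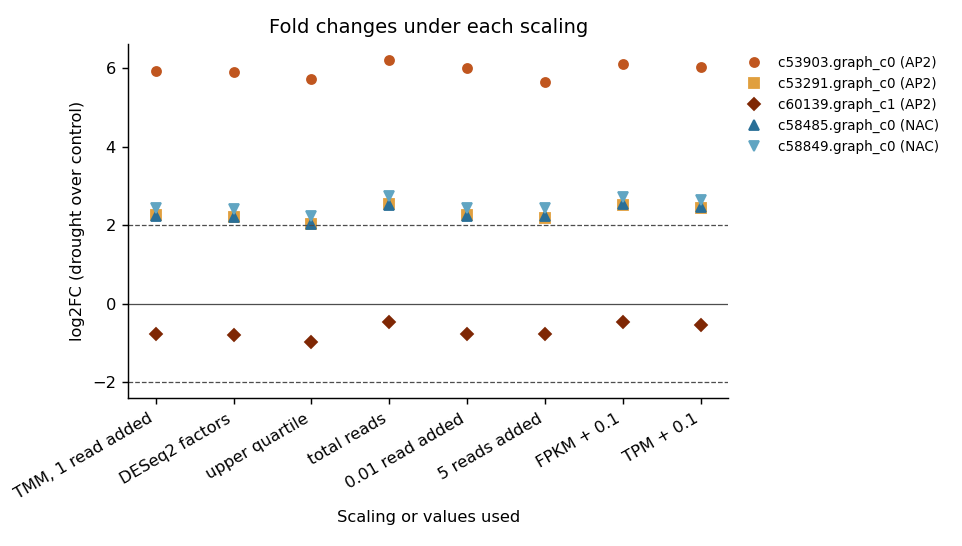
The log2FC (drought over control) of each AP2 and NAC unigene under 8 ways of scaling or of taking the values, with dashed lines at 2 and -2. AP2 c53903.graph_c0 has its lowest value at 5.66, c53291.graph_c0 and c58485.graph_c0 come down to 2.04 and 2.02 with upper-quartile factors, and c60139.graph_c1 stays below 0.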

How the data were processed

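RNA of leaf blades was sequenced from both ends on the HiSeq2500, and the authors filtered the reads and assembled those of both libraries with Trinity. The submitters' processing notes name Bowtie 0.12.2, Cufflinks and the mouse build mm8 without their roles, and no source used here names the quantifier. For each unigene the authors deposited expected counts (estimated reads, not normalized, shared between similar transcripts), FPKM values (counts scaled for effective length and library total) and TPM values (scaled for length first). Lengths in bp were deposited beside them.

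Expected counts were rounded to whole reads. Scaling factors came from edgeR 4.0.16 (TMM, upper quartile) and DESeq2 1.42.0 in R 4.3.3. The log2FC had 1 read added to each scaled count. Its 95% interval was taken from the share of drought reads by the exact Clopper-Pearson method, without the added read. TPM intervals are exact Poisson intervals, and differences between unigenes have exact conditional intervals of the odds ratio, over 4 pairs and 1 added pair within c60139. EBSeq, which the study used, was not run. With 1 library per condition no test was made, and no p-value is given. The steps for the log2FC and its interval were run on simulated counts with counting error alone and few changed unigenes. Such counts could not test spread between libraries or the choice of scaling. Python 3.11.15, NumPy 2.4.6, SciPy 1.17.1, pandas 2.3.3 and matplotlib 3.10.9 were used.

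The members and lists were chosen with earlier results of these data known. Named unigenes were the 5 members, the other transcription factor and hormone signalling unigenes the study names, c60139.graph_c0, the nearest transcription factor to each member, and the unigene nearest to c53903.graph_c0 and to c60139.graph_c1. Alternatives were other scalings, added reads, FPKM and TPM values, minimum reads, thresholds, percentiles over all unigenes and assumed coefficients of variation. The AP2 sum without c60139.graph_c1 was added after seeing the data.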

Additional observations from a re-analysis of the deposited data

How the results depend on the processing

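Of 42 log2FC values of the 5 unigenes and c60139.graph_c0 under 7 alternatives, 27 stayed within the counting interval of the TMM value, 15 moved outside it and 0 turned direction. With upper-quartile factors the log2FC was -0.98 for c60139.graph_c1, 2.02 for c58485.graph_c0 and 2.23 for c58849.graph_c0. With total reads these were -0.48, 2.52 and 2.73, with FPKM values -0.47, 2.54 and 2.73, and with TPM values -0.55, 2.45 and 2.64. The differences between unigenes take no scaling, and their 20 values under the 4 other alternatives stayed within their intervals. That of c53291.graph_c0 minus c58485.graph_c0, whose interval includes 0, was -0.06 with 5 reads added. The number of all unigenes with a log2FC of 2 or more, 19681, became 2896 with 5 reads added, 6949 with at least 10 reads in total, 1029 with at least 10 in each library and 7199 at a threshold of 3. The number at -2 or less, 12477, became 1768, 3330, 842 and 3532 in the same order. Fewer unigenes were tested, or fewer could pass, in each of these. In the other lists, calls were lost with upper-quartile factors by WRKY c52656.graph_c0 (1.92) and PP2C c39046.graph_c0 (1.99), and with FPKM values by JAR1 c44105.graph_c0 (-1.93). At a threshold of 3 only c53903.graph_c0 of the members passed. Control percentiles of TPM rose when unigenes at 0 TPM were ranked too. They went from 14.6 to 42.7 for c53903.graph_c0, from 65.2 to 76.7 for c53291.graph_c0 and from 79.0 to 85.9 for c58849.graph_c0. No paired analysis was possible because each condition has 1 library. Depth limits c53903.graph_c0 most, with 17 control reads. Variation between plants could not be measured from these pooled libraries, and the study's PCR on biological replicates was not used here.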
